A study of Homo sapiens with 6 samples.

Results

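This comparison sets GAS5 overexpression directly against YAP knockdown in HCT116 cells, an epithelial line from a human colorectal carcinoma. The genes were chosen by their level alone: those whose counts in the GAS5 and siYAP groups averaged at least 50 were kept, which left 11882 of the 19871 gene symbols in the mRNA tables and set aside 7989. The study has 6 libraries in 3 groups of 2, namely a negative control (NC), cells given a GAS5 plasmid (GAS5) and cells given YAP-specific siRNA (siYAP), of which 4 libraries enter this comparison. All groups were grown in McCoy's 5a medium with 10% fetal bovine serum. The labels list all 3 groups under siRNA and do not say what NC received, so a plasmid and an siRNA are also set against each other here. Total RNA was made into strand-specific libraries from mRNA and non-coding RNA. The deposited tables hold the authors' mean of each group, not the libraries, so no value below has an SD, an n or a test, and whether both libraries of a group show a difference cannot be told. The mean counts summed to 25521577 in GAS5, 26298036 in siYAP and 27206123 in NC.

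GAS5 is a long non-coding RNA known as a growth-arrest transcript that is often low in tumors. YAP, encoded by YAP1, is the transcriptional co-activator at the end of the Hippo kinase cascade: when it is not phosphorylated it enters the nucleus and drives growth genes together with the TEAD factors. Interferon-stimulated genes are a separate program, switched on through the JAK-STAT pathway and the sensors of foreign RNA and DNA, and their products block viral replication. A direct comparison of both treatments does not pass through the control, so an error in the NC mean cannot move it.

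A ratio is given as the log2 of the counts per library total in GAS5 over those in siYAP, with a prior count of 2 added, so that 1 is a 2-fold difference and a negative value means a higher level in siYAP. Intervals are 95% Wilson intervals of the share of counts and cover counting error only. Over all kept genes the median was 0.03, and the central 95% ran from -0.75 to 0.84. At least 2-fold apart were 269 genes (2.26%). Of these, 166 were higher in GAS5 (1.4%) and 103 were higher in siYAP (0.867%). With Ensembl transcripts alone the numbers were 214 and 158. At 4-fold or more there were 23 genes in the GAS5 direction (0.194%) and 6 in the siYAP direction (0.0505%). The interval lay wholly past 2-fold for 100 of the 166 genes and for 57 of the 103. Among genes with 1000 counts or more, 1.32% were 2-fold apart, against 7.0% between 50 and 200 counts. Just inside the minimum of 50 lay ZNF85 (0.46), FXYD1 (-0.52) and ASB9 (-0.04). Just outside lay IGFLR1 (0.69), PRRT2 (0.15) and WHSC1L1 (1.63).

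**Figure D1:**
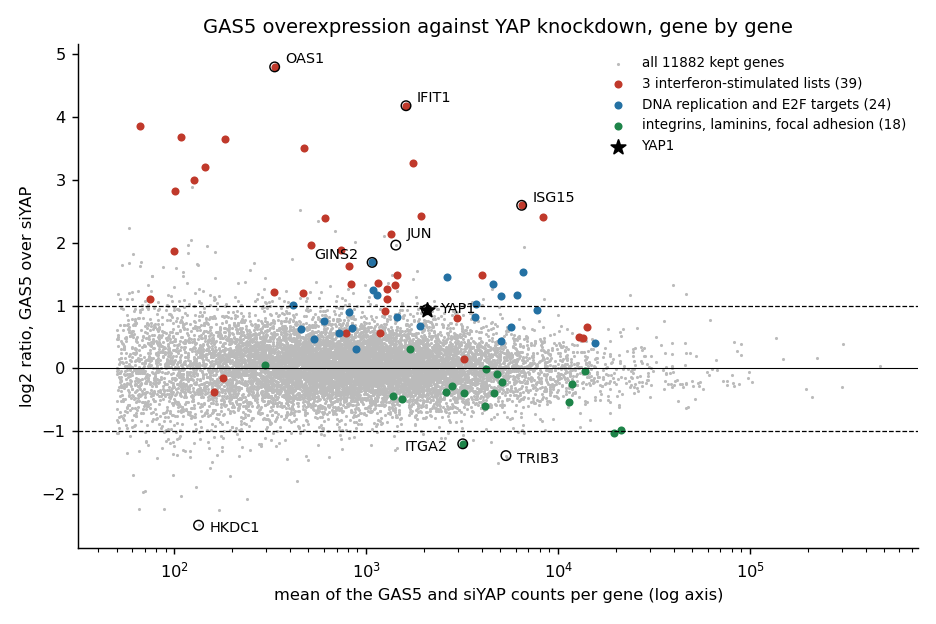
Each point is 1 of the 11882 kept genes, with the mean of its GAS5 and siYAP counts on a log x axis and its log2 ratio of GAS5 over siYAP on the y axis; dashed lines mark 2-fold, colors mark 3 sets of listed genes and open circles mark labelled genes. Interferon-stimulated genes reach from OAS1 at 4.79 down to below 0, DNA replication genes lie above 0, and most integrin and laminin genes lie below it.

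YAP1, the gene the siRNA targets, had a count of 3480 in NC, 2679 in GAS5 and 1444 in siYAP. It was lowest in siYAP, and its level in GAS5 lay between that of siYAP and NC. The log2 ratio was 0.93 (interval 0.87 to 1.00), a 1.91-fold higher level in GAS5. Of its 9 transcripts, 8 were higher in GAS5 and 5 of these by 2-fold or more. The exception, ENST00000615667, had 188 counts in GAS5 and 283 in siYAP. GAS5 itself is a non-coding RNA and was not analysed here. The epithelial origin of the cells was visible in both groups: 7 of 12 colon epithelial markers were kept, among them the keratins KRT8, KRT18 and KRT19 and the adhesion protein EPCAM, while CDX1 was listed at 0 in every group. The 12 markers summed to 159619 counts in GAS5 and 189690 in siYAP. Markers of other cells were scarce. The 6 leukocyte markers summed to 80.5 and 39.5 counts, the 4 endothelial markers to 45.5 and 54.0, and PTPRC, the pan-leukocyte antigen CD45, was listed at 0 throughout. Of 6 fibroblast markers COL1A1 alone was kept, at 556 counts in GAS5 and 540.0 in siYAP. In bulk RNA, fewer cells with a transcript and less of it per cell cannot be told apart.

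Antiviral effectors stood highest in GAS5. Of 26 listed, 20 were kept and 15 of these were at least 2-fold higher in GAS5, beside 1.4% of all kept genes, with a median of 1.88. IFIT1, which binds viral RNA that lacks a host cap, had 3050.5 counts in GAS5, 172 in siYAP and 216.5 in NC. The ratio of 4.18 (4.03 to 4.35) is an 18.1-fold higher level in GAS5, and NC lay near siYAP. Its partners IFIT2 and IFIT3 stood at 3.50 and 3.64, the latter with 343 counts in GAS5 and 26.5 in siYAP. IFI6, a small membrane protein with antiviral activity, had 3146 counts in GAS5 against 337 in siYAP and 268 in NC (3.26). IFI27 had 203 counts in GAS5, 14.5 in siYAP and 10.0 in NC (3.68), and IFI44 had 125, 7 and 6.5 (3.86). IFITM1, which blocks the entry of enveloped viruses, stood at 3.21, whereas its relatives IFITM3 (0.66) and IFITM2 (0.14) were less than 2-fold apart. CMPK2, a mitochondrial nucleotide kinase, stood at 2.99. The 6 effectors below the minimum were EPSTI1, IFI44L, RSAD2, SAMD9L, TRIM22 and XAF1. RSAD2, known as viperin, had 22.5 counts in GAS5 and 1.5 in siYAP, and IFI44L had 21.5 in GAS5 and 0 in siYAP.

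Several genes of the antiviral enzyme list make or answer to signals of double-stranded RNA. Of 11 listed, 9 were kept (median 1.10). Of these, 5 were at least 2-fold higher in GAS5 and none was 2-fold higher in siYAP, beside 1.4% and 0.867% of all kept genes. OAS1, which makes the 2-5A messenger of RNA decay, showed the largest ratio of any kept gene. Its counts were 645 in GAS5, 22 in siYAP and 21 in NC, a ratio of 4.79 (4.48 to 5.35) or 27.7-fold. All 5 of its transcripts with a mean of at least 10 counts were 2-fold or more higher in GAS5. OAS3 (13899 against 2709 counts, 2.40) and OASL (1025 against 199, 2.39) belong to the same family. EIF2AK2, the kinase PKR that halts translation on double-stranded RNA, stood at 1.49, and MX1, a dynamin-like antiviral GTPase, at 1.10 on only 102 and 48.0 counts. Not every enzyme followed: the RNA editing enzyme ADAR stood at 0.50, ZC3HAV1 at 0.80, and ISG20 (-0.37) was a little higher in siYAP. OAS2 (40.0 and 1 counts) and MX2 (13.0 and 0) were below the minimum.

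The ISG15 system attaches a ubiquitin-like protein to others. Of 11 members of this list, which also holds PARP genes, 10 were kept (median 1.42). Of these, 9 were at least 2-fold higher in GAS5, beside 1.4% of all kept genes. ISG15 itself had 11022 counts in GAS5, 1880.5 in siYAP and 1608 in NC, a ratio of 2.59 (2.54 to 2.64). USP18, the protease that removes ISG15, stood at 1.97, and the partners PARP9 and DTX3L, the latter a ubiquitin ligase, at 2.14 and 1.49. PARP10, a mono-ADP-ribosyltransferase, had 177 counts in GAS5, 24 in siYAP and 31.5 in NC (2.82). UBE2L6, the conjugating enzyme, stood at 0.56, and UBA7, the activating enzyme, was below the minimum at 15 counts in GAS5 against 16 in siYAP.

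Taking these 3 lists as 1 set, 39 of 48 members were kept, and 37 of them lay above 0 beside 53.2% of all kept genes. Of the 39, 29 were at least 2-fold higher in GAS5, beside 1.4% of all kept genes. The minimum can be met through GAS5 alone, so these counts favor genes that are high there. With at least 50 counts required in each of both groups, 30 members remained, and 20 of them were 2-fold higher in GAS5, as were 133 of 11704 genes in all. Against the control, the median of the 39 was 1.5 for GAS5 and 0.02 for siYAP. Of the 12 genes with the highest ratios, 11 belong to the interferon lists, as do 19 of the highest 25 and 24 of the highest 50. None of the 50 lowest does. In this ranking OAS1, IFI44, IFI27, IFIT3, IFITM1, CMPK2 and PARP10 met the minimum through GAS5 alone, with fewer than 50 counts in siYAP. The ranking was not repeated with 50 counts required in both groups, and the lists were chosen with earlier results of these data known.

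The upstream parts of the interferon system were mixed. Among the sensors, 9 of 14 were kept. Beside 1.4% of all kept genes, 3 of the sensors were at least 2-fold higher in GAS5. These were IFIH1 (MDA5), with 930.0 counts in GAS5 and 188 in siYAP (2.34), DDX58 (RIG-I), with 1992 and 475 (2.11), and TLR3, with 132.5 and 60 (1.16). MAVS, the adaptor of both RNA helicases, stood at -0.36, and so did TMEM173, the adaptor of DNA sensing known as STING. Of 18 receptor, JAK, STAT and IRF genes, all were kept and 3 were at least 2-fold higher in GAS5, beside the same 1.4%. IRF7, the factor that amplifies interferon transcription, had 1385.5 counts in GAS5, 351.5 in siYAP and 300.0 in NC (2.02). IRF9, the DNA-binding subunit of the ISGF3 complex, had 1177, 527 and 470.0 (1.20). The remaining 15 were less than 2-fold apart, STAT3 at -0.43 and the feedback inhibitor SOCS1 at -0.44, on 102 and 143.5 counts. The medians were 0.09 for the sensors and 0.00 for the pathway. Of 15 class I presentation genes 14 were kept and none was 2-fold apart, with ERAP2 (0.95) and the immunoproteasome subunit PSMB10 (0.84) highest. Of 13 interferon and interferon chemokine genes only IFNL3, an interferon lambda, was kept, with 68.5 counts in GAS5 and 58.5 in siYAP (0.26), and its reads may be shared with near-identical relatives. Below the minimum, IFNL1 had 31.5 counts in GAS5 and IFNL2 had 12.5, and both were listed at 0 in siYAP and NC. The chemokine gene CCL5 had 24 counts in GAS5 and 1.5 in siYAP, and IL15, a cytokine of lymphocytes, had 59 and 36.5.

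To show what the leading interferon-stimulated genes have in common near their starts, RefSeq promoters (GRCh38.p14, 250 bases before to 50 after each gene's start) were searched for GAAANNGAAA on both strands. This is the core of the interferon-stimulated response element, the site of ISGF3. It was present in 3.65% of all 27305 promoters and in 2.63% of the 9692 kept genes with a promoter. Genes at least 2-fold higher in GAS5 held it in 26 of 127 cases (20.5%), and genes at least 2-fold higher in siYAP in 1 of 76 (1.32%). In the 3 interferon-stimulated lists it was present in 23 of 33 promoters (69.7%), among them 5 of 8 whose gene was less than 2-fold higher. These lists hold known interferon-stimulated genes, so a high share there follows from how they were chosen. Of the 26 cases among genes higher in GAS5, 18 belong to these lists. Of genes 2-fold higher in GAS5 that stand in none of the lists used here, 6 of 81 held the motif (7.41%). A match describes these letters and does not show that a factor was bound. The windows below come from 5 genes at least 2-fold higher in GAS5 and from SOCS1, a list member that was not; they run 5′ to 3′ on the gene's strand with the match in capitals.
IFIT1, chr10:89392512-89392537, plus strand: ctttccccTTTCGGTTTCcctaggtt
IFI27, chr14:94110620-94110645, plus strand: gtctgcagTTTCGGTTTCctggaaaa
ISG15, chr1:1013382-1013407, plus strand: gggaaaggGAAACCGAAActgaagcc
OAS3, chr12:112938454-112938479, plus strand: ccgggcggGAAAACGAAAccagaaat
EIF2AK2, chr2:37156969-37156994, minus strand: tccaagggGAAAACGAAActgagaac
SOCS1, chr16:11256300-11256325, minus strand: ccaccgcgGAAAGAGAAAccaaaagt
In ISG15 the match starts 107 bases before the gene's start, and in EIF2AK2 it starts 6 bases before it.

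DNA replication genes formed the other large block that was higher in GAS5, and here the level that stood apart from NC was that of siYAP. The list holds DNA replication genes and E2F targets. All 24 listed genes were kept (median 0.86), and all lay above 0, from 0.30 to 1.69, beside 53.2% of all kept genes. Of the 24, 10 were at least 2-fold higher in GAS5, beside 1.4% of all kept genes. GINS2, a subunit of the replicative helicase, had 1626 counts in GAS5, 519.5 in siYAP and 1242.5 in NC (1.69, interval 1.59 to 1.79). MCM4, part of the helicase ring, had 9614.5, 3420.0 and 7661.5 (1.53), and MCM6 had 3816, 1429 and 3351 (1.46). In each of these, GAS5 lay a little above NC and siYAP far below it. MCM5 stood at 1.35, MCM10 at 1.24, the origin recognition gene ORC1 at 1.17, MCM3 at 1.17 and the sliding clamp PCNA at 1.16. TYMS, which makes thymidylate, and the cyclin gene CCNE2 stood just above 2-fold at 1.02 and 1.00. The smallest ratios belonged to E2F2 (0.30) and MCM7 (0.40). Against NC, the median of the list was 0.24 for GAS5, with 22 of 24 above NC, and -0.67 for siYAP, with 24 of 24 below NC.

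The E2F site, searched as TTTGGCGC, TTTCCCGC, TTTGCCGC or TTTCGCGC on both strands, was present in 3.33% of all promoters, 5.56% of kept genes, 14 of 20 promoters of the replication list (70%), 18 of 127 genes higher in GAS5 (14.2%) and 3 of 76 higher in siYAP (3.95%). E2F factors control the entry into S phase. The replication list includes known E2F targets, so a high share there follows from how it was chosen. The windows below come from the helicase genes GINS2 and MCM6, chosen after their ratios were known, and are written as above.
GINS2, chr16:85688970-85688993, minus strand: tcgccgtgGCGGGAAAacggcggc
MCM6, chr2:135876580-135876603, minus strand: gctttgcaTTTGGCGCgaaatccc
The interferon motif was present in 0 of the same 20 promoters of the replication list.

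Mitosis genes had smaller ratios. All 19 were kept (median 0.66), and 18 lay above 0, beside 53.2% of all kept genes. Beside 1.4% of all kept genes, 1 of the 19 was at least 2-fold higher in GAS5. This was KIF20A, a kinesin of cytokinesis, with 4268 counts in GAS5, 2181 in siYAP and 4655 in NC (1.01). The checkpoint kinase genes BUB1B (0.95) and BUB1 (0.89) and the cyclin gene CCNA2 (0.88) came next. Against NC the list's median was -0.07 for GAS5, with 13 of 19 below NC, and -0.68 for siYAP, with 19 of 19 below NC. Heat shock genes were also higher in GAS5: 10 of 11 were kept (median 0.70) and all 10 lay above 0, beside the same 53.2%. Of the 10, 3 were at least 2-fold higher, beside the same 1.4%. HSPA8, the constitutive HSC70 chaperone, had 56192 counts in GAS5, 23023 in siYAP and 36543.5 in NC (1.33), and HSPE1, a mitochondrial co-chaperonin, stood at 1.05. HSPA1B stood at 1.10, but it shares nearly all of its sequence with HSPA1A, so the split of reads between them is uncertain. Here both treatments contributed, with medians against NC of 0.47 for GAS5 and -0.34 for siYAP.

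**Figure D2:**
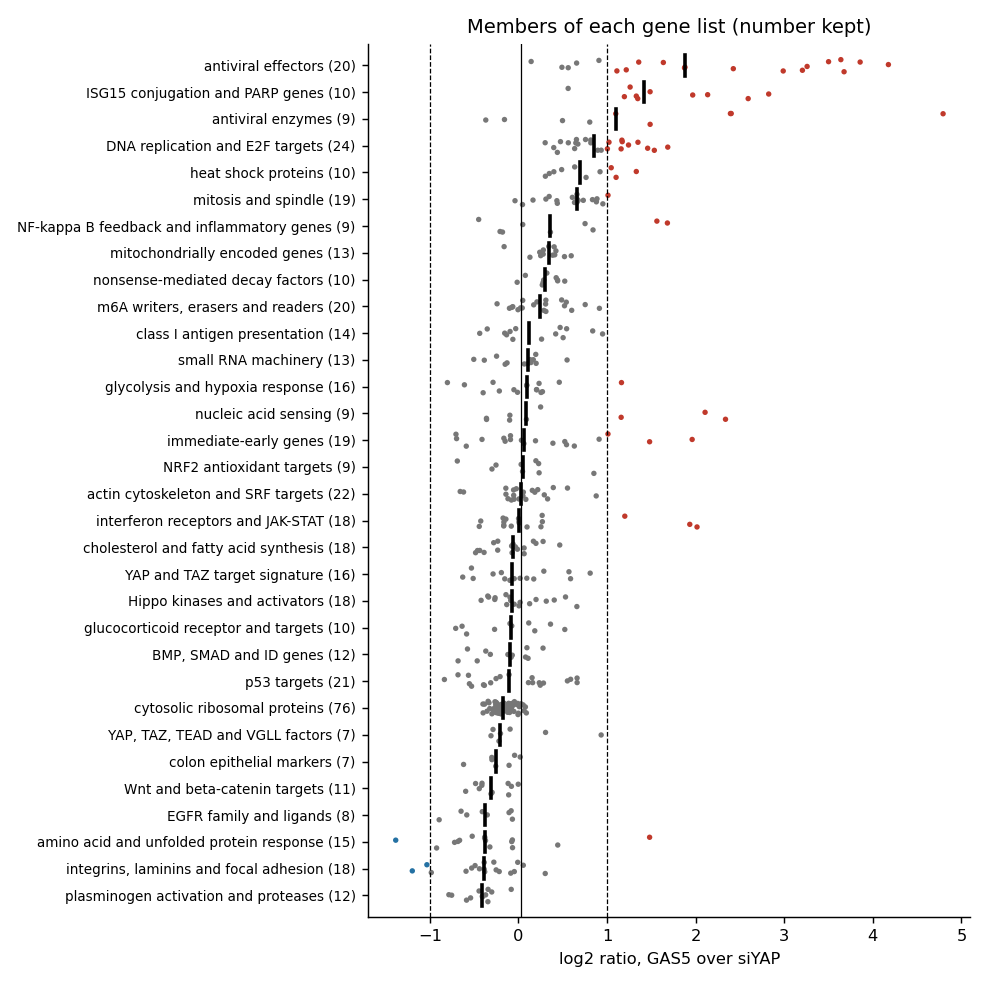
Each point is a kept member of a gene list (number kept in parentheses), with its log2 ratio of GAS5 over siYAP on the x axis; red marks genes at least 2-fold higher in GAS5, blue those at least 2-fold higher in siYAP, thick bars the list medians and the thin line the median of all kept genes at 0.03. The 3 interferon-stimulated lists lead with medians of 1.10 to 1.88, replication follows at 0.86, and the protease, integrin and amino acid lists lie lowest.

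Immediate-early genes answer growth and stress signals within minutes. Of 19 listed, 3 were at least 2-fold higher in GAS5, beside 1.4% of all kept genes, and the median was 0.06. Against NC the list's median was 0.38 for GAS5, with 15 of 19 above NC, and 0.37 for siYAP, with 17 of 19 above NC. JUN, a subunit of AP-1, had 2255.5 counts in GAS5, 595.5 in siYAP and 391 in NC (1.96). ATF3 stood at 1.48 and EGR2 at 1.01, the latter on only 90 counts in GAS5 and 45 in siYAP. DUSP6, a feedback phosphatase of ERK, stood at -0.71. Of 14 genes of NF-kappa B feedback and inflammation 9 were kept and 2 were at least 2-fold higher in GAS5, beside the same 1.4%. TNFAIP3, the feedback enzyme A20, had 395 counts in GAS5, 125.5 in siYAP and 116 in NC (1.68). CXCL8, the chemokine interleukin-8, had 366.5, 126.5 and 57.5 (1.56), so that siYAP also lay above NC. LDHA, which turns pyruvate into lactate, was the 1 gene of the glycolysis and hypoxia list that was 2-fold apart (1.16), and NDRG1 in the same list stood at -0.80.

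Most genes of adhesion to the matrix had ratios below 0. Of 19 integrin, laminin and focal adhesion genes 18 were kept, with a median of -0.38. Of these, 16 lay below 0, beside 5566 of 11882 kept genes, and 2 were at least 2-fold higher in siYAP, beside 0.867%. ITGA2, the collagen-binding integrin alpha 2, had 1891 counts in GAS5, 4472 in siYAP and 3185 in NC (-1.20, interval -1.25 to -1.14). ITGA3, a laminin receptor subunit, had 12601.5, 26573 and 18513 (-1.03), and ITGB4 of the hemidesmosome stood at -0.98. In all 3 genes the control lay between the treatments, with medians of the list against NC of -0.24 for GAS5 and 0.17 for siYAP. All 12 kept genes of 16 in the plasminogen and protease list lay below 0 (median -0.41), beside the same 5566 of 11882. TIMP2, an inhibitor of metalloproteinases, stood at -0.79, and PLAU, the urokinase that activates plasminogen, at -0.75. All 8 kept genes of 9 in the EGFR family list lay below 0 as well (median -0.38), led by the ligand amphiregulin, AREG (-0.89), and followed by TGFA (-0.65) and EGFR (-0.58). The 11 kept Wnt target genes had a median of -0.31, led by NOTUM (-0.60). None of these last 3 lists held a gene 2-fold apart.

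The amino acid and unfolded protein response list had a median of -0.38, with 13 of 15 below 0, beside 5566 of 11882 kept genes. TRIB3, a pseudokinase induced by ATF4, had 2894.5 counts in GAS5, 7792 in siYAP and 5720 in NC (-1.39), and all 3 of its transcripts with a mean of 10 counts or more were 2-fold higher in siYAP. PHGDH, the entry enzyme of serine synthesis, stood at -0.92. The members above 0 were ATF3, which is on this list too, at 1.48 and SDF2L1, an endoplasmic reticulum protein, at 0.44. The 76 cytosolic ribosomal protein genes were all kept and lay between -0.40 and 0.09, with 70 below 0 (median -0.18). The 13 mitochondrially encoded genes had a median of 0.34 and the 10 nonsense-mediated decay factors 0.30, with no gene 2-fold apart in either.

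The genes with the lowest ratios shared no list. The minimum can be met through siYAP alone, so this end of the ranking favors genes that are high there. Among the 12 lowest, HKDC1, GALNT9, LURAP1L, SPARC, RCAN2, C10ORF54 and FAM134C met it in that way, with fewer than 50 counts in GAS5. HKDC1, a hexokinase-like enzyme, had 38 counts in GAS5, 229.5 in siYAP and 124 in NC (-2.49, interval -2.90 to -2.20). The control lay between both treatments. GALNT9, which starts mucin-type sugar chains, had 29 counts in GAS5 and 148.5 in siYAP (-2.24), LURAP1L stood at -2.02, and SPARC, a secreted matrix protein, had 27 and 113.5 counts (-1.95). PADI3, a peptidylarginine deiminase (-1.88), LEMD1 (-1.71) and RCAN2, an inhibitor of calcineurin (-1.70), are further down. Assembled transcripts held 82.9% of the PADI3 counts. The 12 lowest also hold 4 symbols that rest on assembled transcripts alone. These are KIAA0226 (-2.25), C10ORF54 (-2.24), FAM134C (-1.97) and GOLGA8CP (-1.80). SGK223, the 1 gene outside the interferon lists among the 12 highest (2.89), is of the same kind.

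Such assembled symbols need care. Of 152 kept genes without an Ensembl transcript, 16 were at least 2-fold apart, and 11 of the 16 carry an older name of a gene that the tables list again under its current name. SGK223 is an older name of PRAG1, and the merged counts of 1014.5 in GAS5 and 2046 in siYAP give -0.97, the opposite direction. KIAA0226 merged with RUBCN gives 0.061, C10ORF54 merged with VSIR gives -0.61 and FAM134C merged with RETREG3 gives -0.33. GOLGA8CP is a golgin pseudogene with close copies, so its reads are uncertain. Of the 11 merged genes, only ANKRD32, merged with SLF1, was still 2-fold apart (1.03). For the other 5 of the 16 the search for current names gave no second name to merge, so this check does not bear on them.

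**Figure D3:**
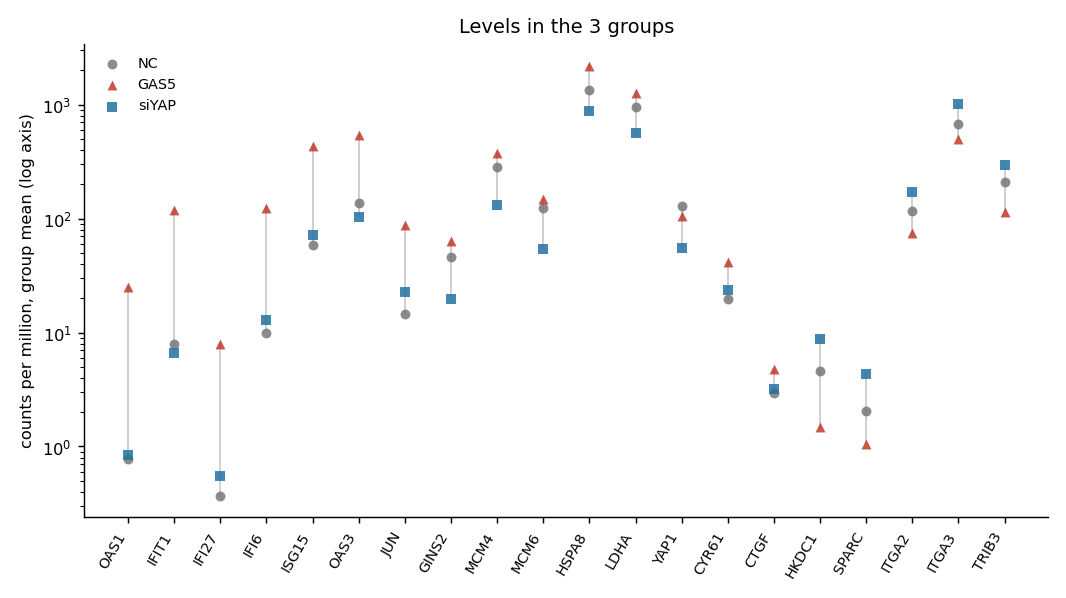
Symbols show the authors' group means in CPM (counts scaled to equal library totals) on a log axis for 20 genes, with circles for NC, triangles for GAS5 and squares for siYAP; no spread between libraries can be drawn. From OAS1 to JUN the NC level lies near siYAP, from GINS2 to LDHA GAS5 lies above NC and siYAP below it, and from HKDC1 on siYAP is highest.

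The Hippo pathway itself was close to even between the treatments. Apart from YAP1, the kept YAP, TAZ, TEAD and VGLL genes lay between TEAD1 at -0.31 and TEAD4 at 0.31, with WWTR1, which encodes TAZ, at -0.29. None of the 18 Hippo kinase and activator genes was 2-fold apart (median -0.07). LATS1, the kinase that phosphorylates YAP, stood at 0.40, FRMD6 at 0.66 and MOB1A at 0.53. Of 22 genes of a YAP and TAZ target signature 16 were kept and none was 2-fold apart (median -0.07). The targets best known for YAP had higher levels in GAS5. CYR61 had 1058 counts in GAS5, 621 in siYAP and 540 in NC (0.81, interval 0.71 to 0.91), and CTGF had 122, 84.0 and 79.5 (0.57, interval 0.30 to 0.86). Neither gene was lower than NC in siYAP. NT5E (-0.63), AXL (-0.53) and ARHGEF17 (-0.51) were higher in siYAP, and F3, tissue factor, stood at 0.59. GGAATG, the core of the TEAD site, was present on either strand in 14.0% of all promoters, 10.2% of kept genes and 4 of 10 promoters of the signature (40.0%). The signature holds known YAP and TAZ targets, so a high share there follows from how it was chosen. Genes higher in GAS5 held the motif in 20 of 127 cases (15.7%) and genes higher in siYAP in 11 of 76 (14.5%). In CTGF the match occurs several times, and the window that starts closest to the gene's start, at 95 bases before it, is shown with the match in capitals.
CTGF, chr6:131951454-131951475, minus strand: gaatgcgaGGAATGtccctgtt

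Genes that write, erase and read m6A, the methyl mark on RNA, had a median of 0.25, and none was 2-fold apart. Of 20 kept, 15 lay above 0, beside 53.2% of all kept genes. The reader YTHDF3 had 1617.5 counts in GAS5, 1145.5 in siYAP and 1544 in NC (0.54, interval 0.46 to 0.62). Only 8 of its 12 transcripts had a mean of 10 counts or more, 6 of the 8 higher in GAS5. The other readers stood at -0.10 for YTHDF1, 0.05 for YTHDF2, 0.49 for YTHDC1 and 0.29 for YTHDC2. The erasers FTO and ALKBH5 stood at -0.24 and 0.21. Of the writer complex, METTL3 stood at 0.75 and WTAP at 0.60. KIAA1429, an older name of VIRMA, stood at 0.91 on 79.9 counts in GAS5 and 42.7 in siYAP, from assembled transcripts alone. Its value merged with VIRMA is not given here, so 0.91 cannot be read as the ratio of the whole gene.

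Where the control lay was not the same for all genes that differed. Of the 166 genes higher in GAS5, NC lay between the treatments and nearer siYAP in 58, between them and nearer GAS5 in 64, and outside both in 44. For the 103 genes higher in siYAP the numbers were 53, 42 and 8. GAS5 lay farther from NC than siYAP did in 91 of the 166 genes and in 58 of the 103. Median log2 ratios to NC were 0.72 for GAS5 and -0.55 for siYAP over the 166 genes, and -0.68 and 0.56 over the 103. Fewer kept genes were at least 2-fold apart from NC than between the treatments, 132 in GAS5 (1.11%) and 101 in siYAP (0.85%).

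**Figure D4:**
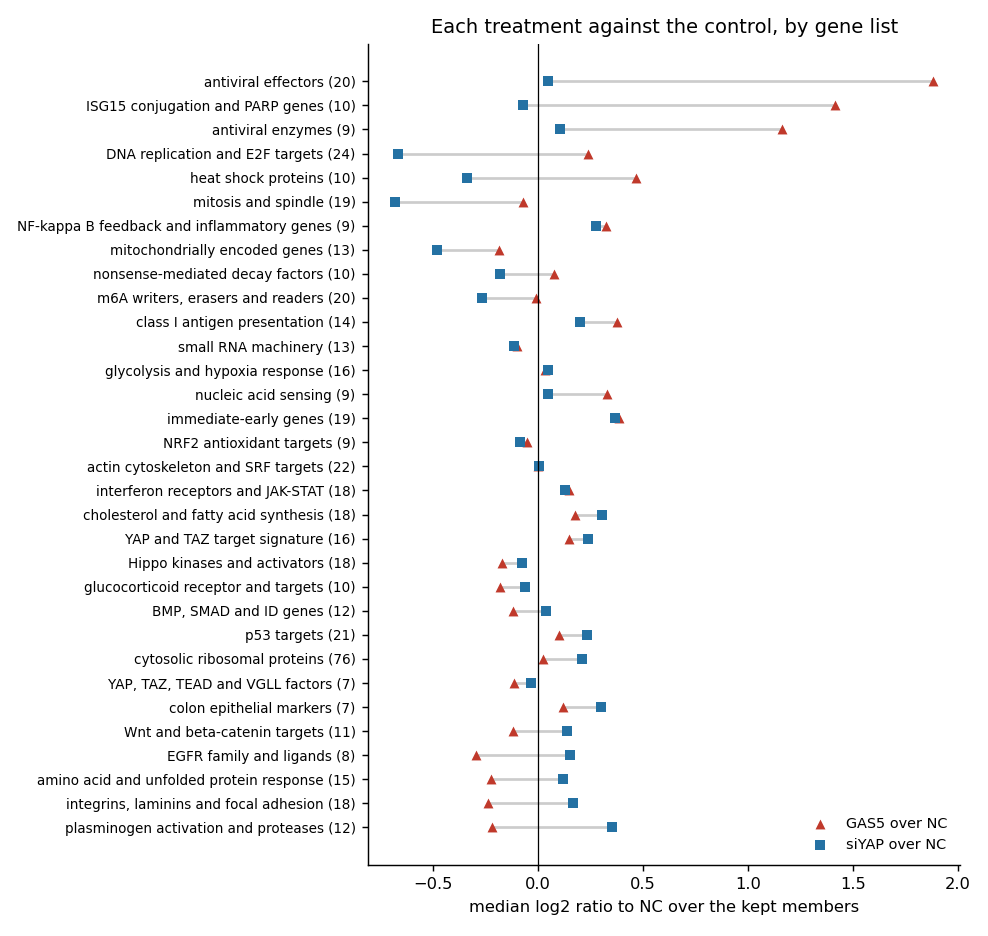
For each gene list (number kept in parentheses) the triangle gives the median log2 ratio of GAS5 over NC and the square that of siYAP over NC; both share the NC means. In the interferon-stimulated lists the triangle is far to the right and the square near 0, in replication and mitosis the square is far to the left, and in the protease, EGFR and integrin lists the symbols lie on opposite sides of 0.

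The GC content of the transcripts moved with the ratio. From the fifth of genes with the lowest GC content to that with the highest, the median ratio went from 0.17 to -0.15, and Pearson's r across 11734 genes was -0.30 (genes are not independent replicates, and they share the libraries). The median GC content was 46.0% in genes higher in GAS5, 56.0% in genes higher in siYAP and 49.6% in all. Against NC, r was 0.53 for siYAP and 0.16 for GAS5. When ratios were centred within 20 GC bins, the list medians were 1.90 for effectors, 0.86 for replication, 0.53 for mitosis, 0.61 for heat shock and -0.40 for integrins and laminins, and ITGA3 went from -1.03 to -0.85. Of the interferon-stimulated genes 28, and of the replication genes 10, were then at least 2-fold higher in GAS5, as were 139 of 11734 genes in all. The medians of the lists nearer to 0 moved too, from -0.11 to 0.064 for p53 targets, from -0.07 to 0.0095 for the YAP and TAZ signature and from 0.25 to 0.13 for m6A genes. YTHDF3 went from 0.54 to 0.38 and LATS1 from 0.40 to 0.25.

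**Figure D5:**
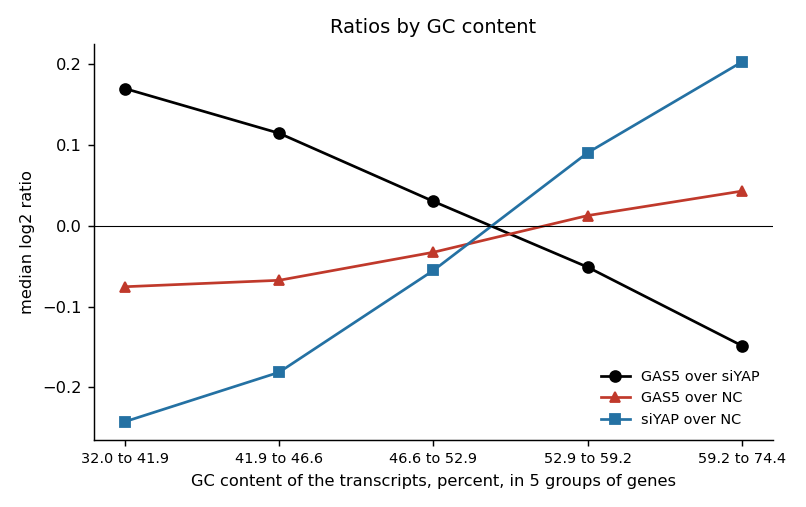
Median log2 ratio (y axis) over 5 equal groups of genes ordered by the GC content of their transcripts (x axis, percent), for GAS5 over siYAP (black circles), GAS5 over NC (red triangles) and siYAP over NC (blue squares). The black line goes from 0.17 down to -0.15, and the steepest line is that of siYAP over NC, from -0.24 to 0.20.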

How the data were processed

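RNA-sequencing libraries of HCT116 cells (NC, GAS5 and siYAP, 2 each) were summarized by the authors in 2 tables of 92866 mRNA transcripts (80864 from Ensembl, 12002 assembled from reads), one table per treatment against NC. The deposited expected counts are estimated counts, and the deposited FPKM values are scaled by transcript length and library size by the authors, both averaged over the libraries of a group. TopHat2 2.1.1 is named in the submitters' processing notes. The counting tool, genome build and annotation are not given in the sources used here. Columns of the authors' own log2 fold changes, p-values and FDR were not used.

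Tables were joined by transcript, and counts were summed by upper-case symbol of the siYAP table, since 212 transcripts have another symbol in the GAS5 table. The 339 transcripts without a symbol (0.20% of counts in GAS5, 0.21% in siYAP) were left out. Sums averaging at least 50 were kept, scaled to library totals (CPM) and compared as log2 ratios with a prior count of 2. Called means at least 2-fold. With 1 mean per group there is no test, so the test of edgeR that counts would allow was not run. Wilson intervals use the counts behind 2 libraries and cover counting error only. GC content came from GENCODE 29 transcripts, promoters from RefSeq on GRCh38.p14 (9692 of 11882 kept genes matched) and pathways from the deposited annotation.

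The comparison and the 36 gene lists (587 symbols) were chosen with earlier results of these data known, so their counts are descriptions. Named genes are those the study names for this experiment with the m6A genes, the 12 highest and 12 lowest ratios, and up to 5 kept members of each list with the largest ratio. A few genes under this rule are not reported here. Other genes named in the text were chosen after their values were seen. Python 3.11.15 (numpy 2.4.6, pandas 2.3.3, statsmodels 0.14.6, matplotlib 3.10.9) and R 4.3.3 with edgeR 4.0.16 (TMM) and DESeq2 1.42.0 (size factors) were used, and the steps were tested on simulated data.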

Additional observations from a re-analysis of the deposited data

How the results depend on the processing

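No paired analysis was possible because each group is given as 1 mean. The replicate block, leaving out each replicate and the DESeq2 test therefore were not run. GC centring and the merging of older symbols were chosen after seeing the data. Of 2170 alternative values, 1928 were close to the reported one, 240 moved and 2 reversed. GC centring moved the most, 96 of 215, followed by DESeq2 size factors with 38 of 221. Both reversals occurred when older symbols were merged: SGK223 to -0.97 and KIAA0226 to 0.061. The construction of that alternative, which adds the counts of PRAG1 and RUBCN, is the cause. The other named genes that were 2-fold apart kept their direction under every alternative that held them. TMM scaling gave 150 genes higher in GAS5 and 125 in siYAP, and DESeq2 size factors 146 and 132, so the share higher in GAS5 went from 61.7% to 54.5% and 52.5%. Both scalings left the median of all genes within 0.1 of the reported one. With a minimum of 200 counts, which tests fewer genes, 153 genes were 2-fold apart, 101 higher in GAS5 and 52 in siYAP, with 64 for GAS5 against NC and 41 for siYAP against NC, and GAS5 lay farther from NC than siYAP did in 54 and 28. Without a minimum, 1175 genes were 2-fold apart, 788 and 387 by direction. With Ensembl transcripts only, 214 were higher in GAS5 and 158 in siYAP, and the ratio of summed FPKM put YAP1 at 1.07; the cause was not tested. Depth limits genes near 50 counts, where intervals are widest, and the unmeasured spread between libraries limits all values.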

Other observations

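Beyond the lists, 111 of the 166 genes higher in GAS5 and 100 of the 103 higher in siYAP stand in none of them. The genes given here were picked after their values were seen, among those with 500 counts or more. Further genes known to respond to interferon were higher in GAS5. DDX60 had 1123.5 counts in GAS5, 253 in siYAP and 296.5 in NC (2.18), TRIM14 stood at 1.55, PNPT1 at 1.33, HELZ2 at 1.26 and TDRD7 at 1.15. Genes of the S phase and of DNA repair stood beside the replication list: DTL at 1.36, the checkpoint adaptor gene CLSPN at 1.30, UHRF1, which maintains DNA methylation, at 1.10, BRCA2 at 1.12 and EXO1 at 1.09. For BRCA2 the counts were 1014 in GAS5, 481 in siYAP and 1004 in NC. The arrestin-domain gene ARRDC3 had 2535 counts in GAS5, 973.5 in siYAP and 891.5 in NC (1.42), a layout like that of JUN. TUBA1B, an alpha-tubulin with close paralogs, stood at 1.18 on 63950 and 29095 counts.

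In the other direction, ARHGEF2, a microtubule-bound activator of RhoA, had 2878.5 counts in GAS5, 7999.5 in siYAP and 5682 in NC (-1.43), and 8 of its 10 transcripts with a mean of at least 10 counts were 2-fold higher in siYAP. ASS1, the urea cycle enzyme that makes argininosuccinate, had 2691 counts in GAS5, 6258.5 in siYAP and 4025 in NC (-1.17). The decoy receptor gene TNFRSF6B stood at -1.27, the membrane protease ADAM19 at -1.14, the hormone gene FGF19 at -1.11 and DUSP5, a nuclear ERK phosphatase, at -1.02. HIST2H2AA3, a histone H2A gene with an identical neighbor copy, stood at -1.49.

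Among 269 KEGG pathways of the deposited annotation with at least 15 kept genes, DNA replication had the highest median ratio, 0.65 over 35 genes, followed by mismatch repair at 0.61 over 22 and the Fanconi anemia pathway at 0.43 over 51. The proteasome stood at 0.41 over 41 genes with none 2-fold apart. Protein digestion and absorption (-0.33 over 35 genes) and ECM-receptor interaction (-0.32 over 44) had the lowest medians. Pathways share genes, and these medians carry no test.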
